A study of Mus musculus with 48 samples.

Results

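The pericytes of the control side of the mouse brain were compared with the other cells of the neurovascular unit, namely endothelial cells (EC), astrocytes (AC) and microglia (MG). They comprised 6 of the 48 libraries of the series, the contralateral samples cPC_1 to cPC_6, and were set against the 6 contralateral libraries of each of the 3 other cell types, 24 libraries in all. Of 24973 genes in the deposited table, the 17470 with a mean normalised read count of 10 or more in at least 1 of the 4 groups were compared. A gene was called higher when it passed the test against each of the 3 other cell types, and lower likewise. All mice were adult male C57BL/6 animals that had undergone transient middle cerebral artery occlusion (tMCAO) for 1 h and reperfusion for 23 h, so the contralateral hemisphere was the unaffected side of a brain with a stroke and not tissue of a naive animal. Each library came from 3 to 4 pooled brains, and the study sorted the 4 cell types from the same pooled tissue after removal of the leptomeninges. The labels do not state that libraries of 1 replicate number share a pool. Pericytes were the cells without CD45, ACSA2 and VE-cadherin that carried both NG2 and PDGFRβ. Endothelial cells were gated by VE-cadherin, astrocytes by high ACSA2 and microglia by low CD45 with CD11b. The gate does not separate pericytes from vascular smooth muscle, which carries the same surface proteins.

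Pericytes and smooth muscle cells are the mural cells of vessels. Pericytes sit in the basement membrane of capillaries and receive PDGF-B and Notch ligands from the endothelium, while smooth muscle cells wrap arterioles and set their diameter through actin and myosin. Both are attached to laminin and collagen IV through integrins, and both answer vasoactive hormones and nitric oxide.

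The summed normalised counts of the 24 libraries were between 10936238 and 15633875, and the spacing of the low values placed the depth of the NG2+/PDGFRβ+ libraries between 9100000 and 13600000 reads. Normalised counts are reads per gene scaled library by library, and a count of 0 allowed up to 2.01 to 4.02 normalised counts (3 reads), a limit that covers counting error only. Pearson's r between the NG2+/PDGFRβ+ libraries across genes was 0.84 to 0.959, against 0.68 to 0.814 with endothelial cells, 0.632 to 0.762 with astrocytes and 0.612 to 0.716 with microglia; genes are not independent replicates. Several libraries stood apart. NG2+/PDGFRβ+ replicate 2 held 46262 summed counts of 10 microglia markers and 40533 of 10 oligodendrocyte markers, where the 5 others held 596 to 18155 and 1436 to 5473. Endothelial library 2 and astrocyte library 2 held 62456 and 53200 counts of the microglia markers. Endothelial library 2 also held 51979 counts of blood cell markers, and its endothelial markers summed to 64.0% of the group mean. It was left out only together with the other libraries of replicate 2. Replicates 5 and 6 differed from replicates 1 to 4 in the level of contractile and pericyte genes, and astrocyte libraries 2, 5 and 6 held RNA of several pericyte genes. Results that rest on these NG2+/PDGFRβ+ and astrocyte libraries are given with and without them. A call said to be lost without a replicate was lost when that NG2+/PDGFRβ+ library alone was left out. Since each library is a pool of brains and each group was sorted once per pool, p-values rest on the spread between libraries of a group. That spread holds differences between pools as well as counting error. It was estimated once per gene over the 4 cell types, so a gene has the same SE in each comparison. The main fit had no term for the replicate number.

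Pdgfrb, Cspg4, Des and Cd248, which the study names among its pericyte markers, were higher in the NG2+/PDGFRβ+ libraries than in each other cell type, with no overlap between groups. Kcnj8 is a further pericyte marker, which the study reported by qRT-PCR as enriched in pericytes sorted from healthy mice. In the contralateral libraries here it was not called (below). Pdgfrb, the receptor for endothelial PDGF-B, ranged from 6893 to 31045 (median 13818.5) in these libraries, from 77 to 341 (median 136) in endothelial cells, from 1286 to 4332 (median 2040) in astrocytes and from 5 to 153 (median 80.5) in microglia. Cspg4, which encodes NG2, ranged from 12206 to 29322 (median 25059) against a highest value of 1275 in the 18 other libraries. Both proteins were used for sorting, so their levels check the sort and are no separate finding. Des, the muscle intermediate filament desmin, ranged from 22059 to 32844 (median 26618.5), and its log2 differences (± standard error, SE) were 8.40 ± 0.85 against endothelial cells, 8.95 ± 0.85 against astrocytes and 9.30 ± 0.85 against microglia (limma, largest adjusted p = 2.31e-08). Cd248, the stromal surface protein endosialin, ranged from 1715 to 9296 (median 4770.5), the highest other library being an astrocyte one at 597. The study names these 4 genes in its account of the same samples, so their direction here is not independent evidence.

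The label pericyte was therefore met by these 4 markers but not by all. Kcnj8 and Abcc9, the subunits of the vascular KATP channel and usual markers of brain pericytes, were not called. Since the gate admits more than 1 kind of mural cell, the libraries are named here by their gate as NG2+/PDGFRβ+ cells. In bulk libraries, fewer cells of one type and less RNA per cell cannot be told apart.

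**Figure D1:**
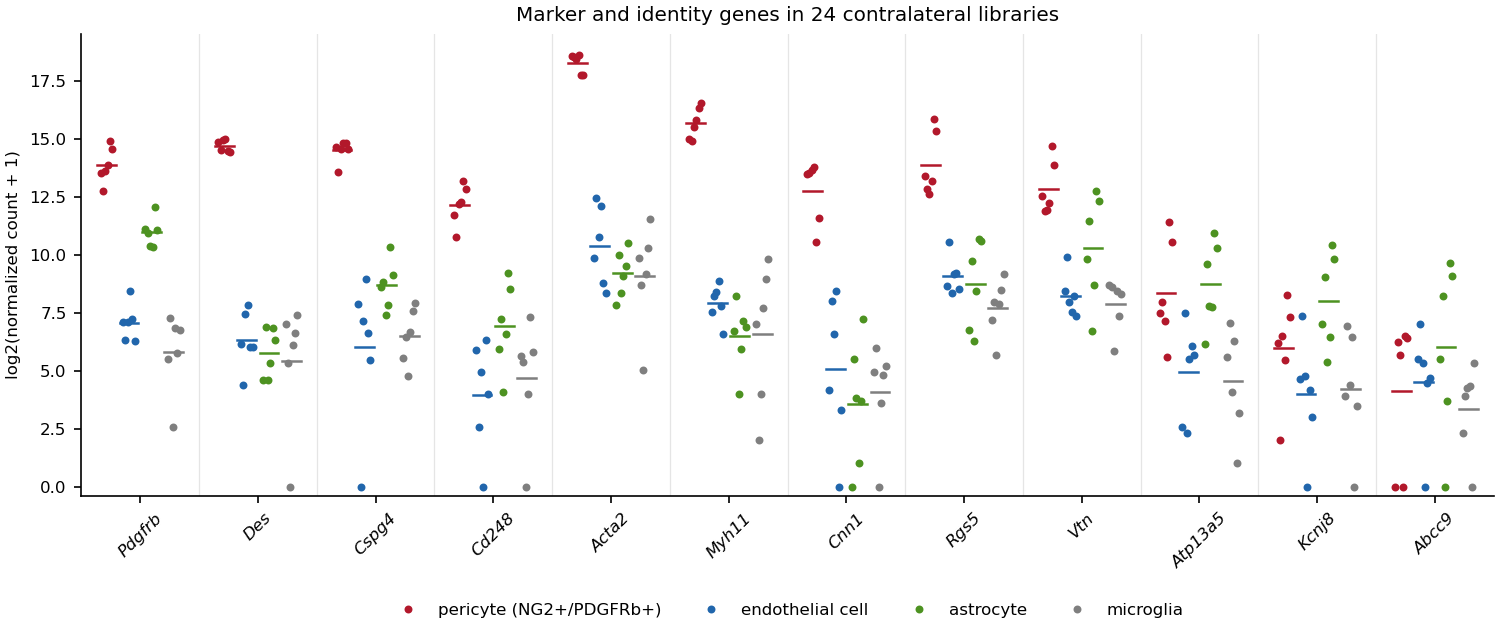
Marker and identity genes in the 24 contralateral libraries. The y axis gives log2(normalised count + 1), each point is 1 library and each bar the mean of 6 libraries of a cell type. Points of Pdgfrb, Des, Cspg4, Cd248, Acta2, Myh11, Cnn1 and Rgs5 for NG2+/PDGFRβ+ cells lie above all other libraries, whereas Vtn, Atp13a5, Kcnj8 and Abcc9 overlap with astrocyte libraries.

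Of the 17470 genes, 905 were higher in NG2+/PDGFRβ+ cells than in each of the 3 others (5.18% of genes tested) and 454 were lower than in each (2.60%). Against endothelial cells alone 2340 genes were higher (13.4%) and 2142 lower (12.3%), against astrocytes 2337 higher (13.4%) and 3952 lower (22.6%), and against microglia 3108 higher (17.8%) and 3385 lower (19.4%). The lowest NG2+/PDGFRβ+ library lay above the highest of the 18 others for 701 genes (4.01%), among them 630 of the 905 higher genes. The reverse held for 111 genes (0.635%), among them 101 of the 454 lower genes. Of the higher genes 845 were protein coding, 19 lincRNAs and 13 antisense RNAs, and 36 had 10 counts or fewer in every one of the 18 other libraries. Without replicate 2, 916 genes were higher (868 of them shared with the 905) and 520 lower (419 shared with the 454). With replicates 1 to 4 alone the counts were 714 higher (685 shared) and 311 lower (270 shared), and with replicates 5 and 6 alone 886 higher (649 shared) and 413 lower (241 shared). Leaving out astrocyte libraries 2, 5 and 6 gave 829 higher (807 shared) and 364 lower (350 shared).

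All 18 contractile and smooth muscle genes listed were higher than in each other cell type, against 5.18% of all genes. The members of this list and of those below were chosen with earlier results of these data known. Their shares are descriptions and no independent support. Some genes stand on more than 1 list, so the counts of the lists overlap. For 17 of the 18 all NG2+/PDGFRβ+ libraries lay above every other library, against 4.01% of all genes. Median log2 differences over the 18 were 7.02 against endothelial cells, 7.79 against astrocytes and 8.47 against microglia. The medians over all genes were 0.0, -0.48 and -0.08. Acta2, smooth muscle α-actin, took the largest share of counts in each of the 6 libraries. Its normalised counts in replicates 1 to 6 were 388068, 374543, 355663, 398344, 219016 and 223331. The 18 other libraries reached at most 5505, so that the groups lay far apart, with log2 differences of 7.88 ± 0.78 against endothelial cells, 9.06 ± 0.78 against astrocytes and 9.17 ± 0.78 against microglia (largest adjusted p = 1.70e-08). Reads shared by actin copies were left out of the counts by the authors, so the levels of Acta2 and of the enteric smooth muscle actin Actg2 are uncertain in absolute terms. For this list and for those below on tone, identity, signals, transcription factors, matrix, fibroblasts, the respiratory chain and transporters, 0 genes were lower in all 3 comparisons (limma), and 0 were lower at an unadjusted p under 0.05.

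Among the myosin genes, Myh11, the smooth muscle heavy chain, ranged from 30758 to 95220 (median 51980.5) with 909 as the highest other value. Myl9, the regulatory light chain that is phosphorylated during contraction, ranged from 104710 to 171005 (median 116641.5) against at most 3753 elsewhere. Its kinase Mylk ranged from 31777 to 48418 (median 37430.5), and here endothelial cells came next with 653 to 2121 (median 1183.5). Log2 differences of Mylk were 5.05 ± 0.49 against endothelial cells, 8.35 ± 0.49 against astrocytes and 8.23 ± 0.49 against microglia. Thus each step from kinase to light chain to heavy chain was represented at levels that no other library reached.

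The thin filament genes showed more variation among the 6 libraries. Tpm1 and Tpm2, the tropomyosins, ranged from 43012 to 65102 (median 53738.5) and 35198 to 71907 (median 64644.5). Cnn1, the actin-binding calponin, had 11404, 11685, 12951 and 13955 counts in replicates 1 to 4 and 1515 and 3091 in replicates 5 and 6. Actg2 showed the same split, with 3059, 3032, 2155, 3321, 307 and 558 in replicates 1 to 6. Even the lower pair exceeded the highest values elsewhere, 341 for Cnn1 and 26 for Actg2. Tagln, the actin-bundling transgelin, was steadier at 2530 to 4066 (median 2976.5) with at most 106 in other libraries.

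Smtn, Synpo2, Mustn1 and Tpm1 were the contractile genes with the smallest gap to endothelial cells. Smtn, encoding smoothelin, ranged from 11158 to 19157 (median 13994) against 1364 to 3662 (median 3094.5) in endothelial cells, a log2 difference of 2.38 ± 0.33 (adjusted p = 2.50e-06), while its differences were 5.70 ± 0.33 against astrocytes and 7.49 ± 0.33 against microglia. Casq2, a calcium-binding protein of the sarcoplasmic reticulum, had 1446, 1124, 510, 1174, 8495 and 6210 counts in replicates 1 to 6. Replicates 5 and 6 were thus the highest for Casq2, opposite to Cnn1 and Actg2, and the lowest library overlapped with 1 astrocyte library at 518. Pln, the inhibitor of the calcium pump, ranged from 1915 to 3291 (median 2319.5) with at most 96 elsewhere.

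Myocd and Srf, which encode the coactivator and the DNA-binding factor that drive contractile genes through CArG boxes, were both higher. Myocd ranged from 1585 to 2743 (median 2119) and did not exceed 113 in the 18 others. Srf differed less, from 186 to 731 (median 370.5) against 84 to 234 (median 160.5) in endothelial cells, 63 to 145 (median 98) in astrocytes and 95 to 182 (median 148.5) in microglia, with log2 differences of 1.44 ± 0.34 against endothelial cells, 2.01 ± 0.34 against astrocytes and 1.55 ± 0.34 against microglia (largest adjusted p = 0.00166), and its call was lost when replicates 5 and 6 were fitted alone. The 250 bases before the start sites in RefSeq (GRCm38.p6) were searched for the CArG box, named by its usual consensus, on both strands. Windows were matched for 636 of the 905 higher genes, 355 of the 454 lower genes and 12001 of all genes tested. A CArG box lay in 27 higher genes (4.25%), in 2 lower genes (0.563%) and in 175 of all genes (1.46%), while 1.47% of all 32851 promoter windows of the same length held one. Some genes have several windows, and a match is a description of the letters only. Among the contractile genes with a window, 1 of 14 (Myl9) held a CArG box within these 250 bases.

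Promoter stretches of 4 higher genes with CArG boxes are shown because they belong to Srf itself and to genes of the contractile and adhesion machinery; Vcl and Myl6 were picked for display after their calls were seen. Capitals mark the boxes. The stretches lie on GRCm38.p6 at chr17:46556200-46556279 (minus strand) for Srf, chr2:156775268-156775347 (plus strand) for Myl9, chr14:20929148-20929215 (plus strand) for Vcl and chr10:128493015-128493094 (minus strand) for Myl6, all before the annotated start of the transcript.
Srf: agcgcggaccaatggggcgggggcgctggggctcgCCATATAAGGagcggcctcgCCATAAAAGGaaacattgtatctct
Myl9: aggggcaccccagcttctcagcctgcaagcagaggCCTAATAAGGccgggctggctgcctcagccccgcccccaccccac
Vcl: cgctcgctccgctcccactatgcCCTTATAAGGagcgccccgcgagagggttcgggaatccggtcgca
Myl6: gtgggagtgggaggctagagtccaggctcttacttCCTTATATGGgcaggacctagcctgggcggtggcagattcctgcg

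The Srf stretch holds a pair of boxes, 82 to 73 and 62 to 53 bases before the start, the box of Myl9 lies 161 to 152 bases before it, that of Vcl 227 to 218 and that of Myl6 50 to 41. Vcl, which links integrins to actin, ranged from 2867 to 6634 (median 4761) with at most 1682 elsewhere. Myl6, the essential myosin light chain, ranged from 13376 to 29392 (median 21535), and here 1 endothelial library reached 22490. Dmd (dystrophin) and Fermt2 (kindlin-2) also had a box, but their calls were close to the threshold. The smallest log2 difference of Dmd was 1.04 ± 0.35, against astrocytes, and the call was lost without replicate 5, where the difference was 0.83. Fermt2 was 0.65 ± 0.24 above endothelial cells, and its call was lost without replicate 2, 3, 4 or 6.

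The TEAD site, searched as GGAATG on both strands, lay in 6 of the 14 contractile genes with a window (42.9%), namely Acta2, Mylk, Tpm1, Cald1, Lmod1 and Smtn. It was found in 18.2% of higher genes, 12.4% of lower genes and 13.1% of all genes tested. TEAD factors are DNA-binding partners of YAP, and such sites are known from smooth muscle promoters. The Acta2 stretch, shown since this gene had the highest level, lies at chr19:34255479-34255554 (GRCm38.p6, minus strand) with the site in capitals, 146 to 141 bases before the start.
Acta2: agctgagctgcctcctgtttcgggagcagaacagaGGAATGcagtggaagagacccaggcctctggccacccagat

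The RBPJ site TGGGAA, through which Notch acts, was about as frequent in higher genes (27.8%) as in lower genes (23.4%) and in all genes (24.3%). The FOX site TGTTTAC lay in 3.30%, 1.13% and 2.82%, and the T-box motif GGTGTGA in 2.83%, 4.51% and 3.48%. For these 3 motifs the share in higher genes stayed near the share in all genes.

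The pathway labels of the deposited table gave a wider view of contraction. Of 92 tested genes labelled vascular smooth muscle contraction, 29 were higher (31.5%) and 3 lower (3.26%), against 5.18% and 2.60% of all genes. The share of higher genes was the largest among 255 labels with 20 or more tested genes. The genes named next from these labels were picked after their values were seen. Myosin phosphatase, which ends contraction, was represented by its targeting subunits Ppp1r12a, from 5541 to 9529 (median 6564.5) with at most 854 elsewhere, and Ppp1r12b, from 4874 to 14180 (median 12653.5) with at most 228. Its catalytic subunit Ppp1cb ranged from 7196 to 12293 (median 10177) and overlapped with no other library, the nearest being an astrocyte one at 4489. The inhibitor of this phosphatase, Ppp1r14a, was higher too, but its call against astrocytes (log2 difference 1.85 ± 0.65) was lost without replicate 4. Rock1, the kinase that inactivates the phosphatase, ranged from 3654 to 6572 (median 5190.5), with log2 differences of 1.58 ± 0.17 against endothelial cells, 2.74 ± 0.17 against astrocytes and 2.30 ± 0.17 against microglia. The 3 lower genes, a share near that over all genes, were Gnaq, Itpr2 and Prkcb. Gnaq, the G protein α subunit downstream of many constrictor receptors, ranged from 291 to 624 (median 426.5) where the lowest of the 18 others had 668. Of the IP3 receptors, Itpr1 was higher (1268 to 3351 (median 2382.5) against at most 756) and Itpr2 lower (63 to 417 (median 183) against at least 577).

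Receptors, channels and enzymes of vascular tone were tested for 25 of 26 genes listed, Agtr1a having too few counts. In all, 16 were higher in NG2+/PDGFRβ+ cells, 0 lower and 9 not called, against 5.18% and 2.60% of all genes. Median log2 differences over the 25 were 6.58, 4.24 and 6.997 against endothelial cells, astrocytes and microglia, or 6.02, 4.24 and 6.76 with genes at 0 in a whole group set to the limit of 3 reads. Npy1r, the neuropeptide Y receptor that constricts vessels, ranged from 4812 to 8172 (median 6727) with at most 100 in other libraries. Ednra, the constrictor receptor for endothelin, ranged from 2481 to 6253 (median 3801.5) against at most 512. Its paralog Ednrb was an astrocyte gene here, with 4025 to 11636 (median 7133) in astrocytes and 0 to 409 (median 235.5) in NG2+/PDGFRβ+ cells. The paralogs were thus divided between the cell types, with log2 differences against astrocytes of 4.25 ± 0.88 for Ednra and -6.27 ± 0.93 for Ednrb. Of 13 receptor and channel paralogs tested, 4 were higher and 1 lower (Notch4), against 5.18% and 2.60% of all genes. Pdgfrb, Ednra and Notch3 were among the higher ones, and Abcc8 had too few counts. Since PDGFRβ was used for sorting, the call of Pdgfrb checks the sort and is no separate finding.

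Ptgir and Adora2a encode receptors known to relax vessels. Ptgir, the prostacyclin receptor, ranged from 492 to 680 (median 544.5) and had at most 13 elsewhere. Adora2a, an adenosine receptor, ranged from 190 to 1268 (median 515) with log2 differences of 4.72 ± 0.91 against endothelial cells, 3.29 ± 0.91 against astrocytes and 7.91 ± 0.91 against microglia (largest adjusted p = 0.00446). P2rx1, the ATP-gated channel of smooth muscle, ranged from 1095 to 2248 (median 1357), and microglia came next with 119 to 263 (median 207.5). P2ry14, the receptor for UDP-glucose, ranged from 1450 to 3209 (median 1893) with at most 706 elsewhere. Angiotensin receptor 1b (Agtr1b) and the α2B-adrenoceptor (Adra2b), picked after their values were seen, were low. Adra2b ranged from 33 to 213 (median 94) with at most 13 elsewhere. Agtr1b had 90, 114, 265, 131, 68 and 84 counts in replicates 1 to 6 and was at 0 in all endothelial cell and astrocyte libraries, which makes it at least 33.6-fold and 38.1-fold higher here against a limit of 3 reads per library, with at most 15 in microglia.

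Several receptors on the list did not pass. Adra1a had 0, 0, 0, 0, 16 and 5 counts in replicates 1 to 6 and was an astrocyte gene, with 134 to 568 (median 233.5) there. Avpr1a, the vasopressin receptor, reached 0, 207, 0, 140, 0 and 24 and missed the minimum of more than 10 counts in all 6 libraries. Ptger3 ranged from 32 to 393 (median 106), which overlapped with 31 to 92 (median 78) in microglia. Trpc6 had a library at 10, replicate 2, and was called once that library was left out, with a range up to 461. It was at 0 in all endothelial cell and microglia libraries.

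Of the channels, Cacna1c, the pore of the L-type calcium channel that admits calcium for contraction, ranged from 256 to 718 (median 405.5) against at most 126. Cacna1h, a T-type calcium channel, ranged from 320 to 2074 (median 1368) and was close to astrocytes (132 to 325 (median 245)), and its call was lost without replicate 5. Ano1, the calcium-activated chloride channel, had 2346, 1856, 2572, 3019, 12496 and 10964 counts in replicates 1 to 6, the last 2 being the highest. Kcnmb1, the β1 subunit of the BK potassium channel, ranged from 2766 to 4103 (median 3359.5) against at most 887. The pore subunit Kcnma1 was not called, since astrocytes had 174 to 602 (median 269.5) against 357 to 1308 (median 826). For this channel the accessory subunit was called and the pore was not.

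The nitric oxide and cGMP branch was represented from receptor to hydrolysis. Gucy1a3 and Gucy1b3, the subunits of the nitric oxide receptor, ranged from 4423 to 10696 (median 6668.5) and 658 to 3929 (median 2286.5), with at most 500 and 270 elsewhere. Prkg1, the cGMP-dependent kinase, ranged from 255 to 781 (median 629) against at most 92, and Mrvi1, its substrate at the calcium store and picked after its values were seen, from 3008 to 8585 (median 5902) against at most 126. Pde5a, which degrades cGMP, ranged from 2090 to 5251 (median 3198.5) with log2 differences of 4.87 ± 1.04 against endothelial cells, 7.92 ± 1.04 against astrocytes and 7.68 ± 1.04 against microglia (largest adjusted p = 6.40e-04). Pde3a, a cAMP and cGMP phosphodiesterase, ranged from 5292 to 11871 (median 8329) against at most 132. Of 143 genes labelled with the cGMP-PKG pathway, 30 were higher (21.0%) and 4 lower (2.8%), against 5.18% and 2.60% of all genes.

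Genes known from pericyte identity were more divided. Of 20 listed genes, 12 were higher and 0 lower, against 5.18% and 2.60% of all genes. For 11 of them all NG2+/PDGFRβ+ libraries lay above every other library, against 4.01% of all genes. Median log2 differences over the 20 were 4.52 against endothelial cells, 3.43 against astrocytes and 5.31 against microglia. Mcam (CD146), a mural cell adhesion molecule, ranged from 17340 to 25401 (median 21557.5) with at most 1727 elsewhere. Rgs5, a regulator of G protein signalling and a standard pericyte gene, had 10636, 7400, 6361, 9292, 59320 and 41047 counts in replicates 1 to 6. Replicates 5 and 6 exceeded the 4 others by far, and all 6 exceeded the highest other library at 1656. Tbx18, Higd1b, Ndufa4l2, Notch3, Gja4, Gper1, Slc19a1 and P2ry14 were also higher. Carmn, the long noncoding RNA of the smooth muscle microRNA cluster, ranged from 242 to 778 (median 436) with at most 56 in other libraries.

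The 8 genes not called were Ifitm1, Kcnj8, Abcc9, Art3, Colec12, Slc6a20a, Anpep and Atp13a5. Kcnj8 had 72, 3, 90, 43, 305 and 159 counts in NG2+/PDGFRβ+ replicates 1 to 6 and 130, 523, 41, 87, 1378 and 895 in astrocyte replicates 1 to 6. Its log2 difference against astrocytes was -2.07 ± 1.23 (adjusted p = 0.174) and against endothelial cells 1.97 ± 1.23 (adjusted p = 0.244). Abcc9 had 0, 74, 50, 0, 90 and 85 and 44, 301, 0, 12, 793 and 539 counts, respectively. The highest values of both genes were therefore in astrocyte libraries 2, 5 and 6, and their origin was not tested.

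Atp13a5 had 177, 251, 139, 47, 2693 and 1488 counts in replicates 1 to 6 and 71, 782, 219, 214, 1961 and 1250 in astrocytes. Vtn, which encodes vitronectin, was called higher but overlapped, with 5898, 3737, 3857, 4772, 26311 and 14863 counts against 906, 2839, 103, 410, 6883 and 5033 in astrocytes, the same 3 astrocyte libraries being the highest. When astrocyte libraries 2, 5 and 6 were left out, Art3 and Colec12 were called, while Kcnj8, Abcc9, Atp13a5, Slc6a20a, Anpep and Ifitm1 were still not. Ifitm1 overlapped with endothelial cells instead, with 79 to 1513 (median 512.5) there and 448 to 1367 (median 956) in NG2+/PDGFRβ+ cells. Anpep (CD13) was low, from 4 to 194 (median 34.5), and was called without replicate 2, where it had 4 counts.

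Identity and contractile genes moved in opposite ways between the NG2+/PDGFRβ+ replicates. In 14 of the 20 identity genes (70.0%) replicates 5 and 6 both lay above all of replicates 1 to 4, against 13.3% of all genes tested, and in 2, Mcam and Ifitm1, both lay below. In 11 of the 18 contractile genes (61.1%) replicates 5 and 6 both lay below the other 4, against 8.03% of all genes, while Myh11, Cald1 and Casq2 were above. No test was made of this split, since it was found in the same libraries and the labels give no difference between the replicate numbers. The matrix list had 13 of 36 genes above (36.1%) and 4 below (11.1%), and the tone list 10 of 25 above (40.0%) and 0 below (0.00%). Endothelial markers overlapped between the 2 sets of replicates, with sums of 13077 to 21152 in replicates 1 to 4 and of 19109 and 23371 in replicates 5 and 6. Microglia markers were lower in replicates 5 and 6 (596 and 1121) than in each of replicates 1 to 4 (1562 to 46262), and blood cell markers likewise (1235 and 1276 against 2439 to 11040). Their part in the split was not tested.

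**Figure D2:**
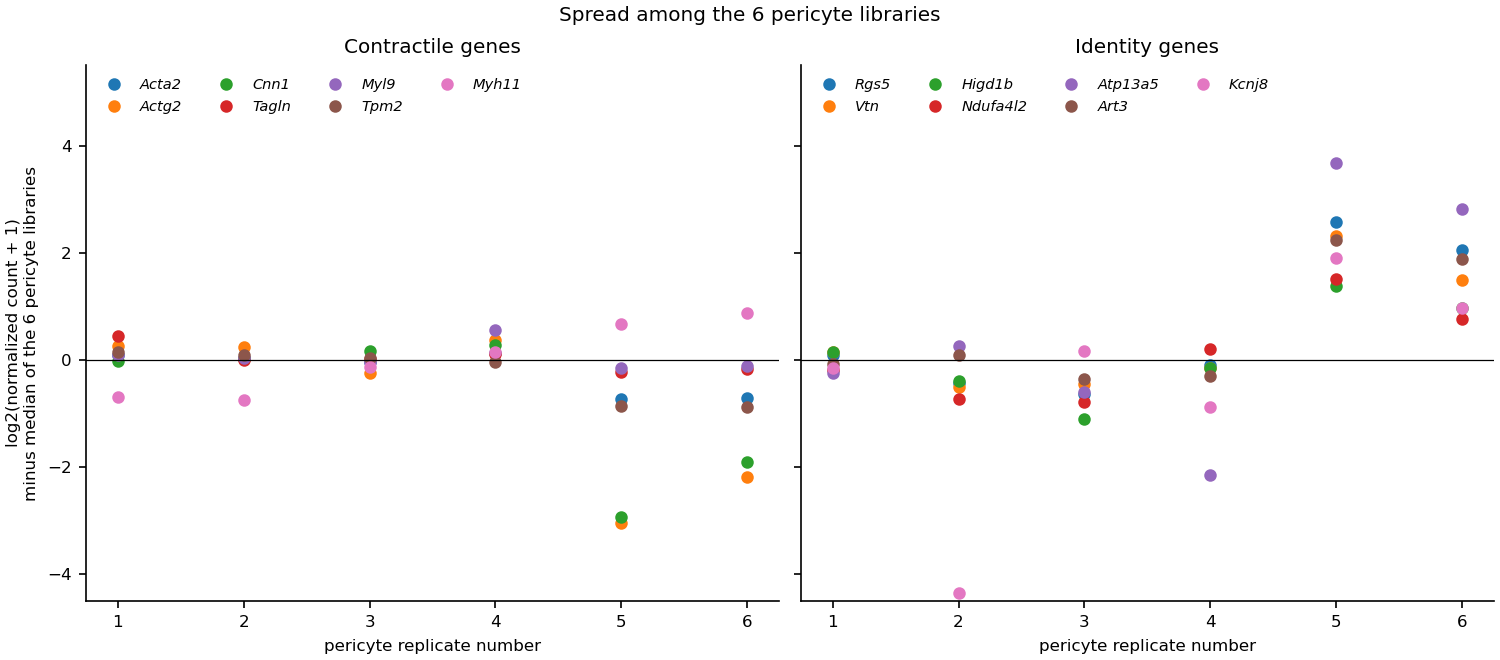
Spread of contractile genes (left) and identity genes (right) among the 6 NG2+/PDGFRβ+ libraries. The x axis is the replicate number and the y axis log2(normalised count + 1) minus the median of the 6 libraries for that gene, each point being 1 gene in 1 library. Replicates 5 and 6 lie below 0 for 6 of the contractile genes shown, with Myh11 above, and above 0 for the identity genes shown.

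The 15 genes with the largest gap to all 3 other cell types, chosen by a fixed rule among those without overlap, were Xirp1, Npy1r, Asb11, Actg2, Fhl5, Tbx18, Adamts14, Angpt4, C1s1, Dgkg, Susd5, Des, Slc47a1, Grip2 and Htr1b. Several are known from muscle. Xirp1, an actin-binding repeat protein of striated muscle, ranged from 1141 to 3963 (median 2762) and was at most 62 in any other library. Asb11, a substrate receptor of a ubiquitin ligase, had 821, 558, 757, 390, 573 and 785 counts in replicates 1 to 6 and 0 in all 18 others, at least 174-fold above endothelial cells, 197-fold above astrocytes and 184-fold above microglia with 3 reads per library as the limit. Only 1 other higher gene, Otogl, was at 0 in all 18, with 79, 23, 46, 136, 209 and 221 counts. Fhl5, a LIM-domain coactivator of CREM and CREB, ranged from 408 to 1098 (median 608) against at most 6.

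Angpt4, Adamts14 and C1s1 encode secreted proteins. Angpt4, a ligand of the endothelial receptor TIE2, ranged from 557 to 2580 (median 1642) against at most 91. Adamts14, a procollagen protease, ranged from 961 to 2598 (median 2061) against at most 65. C1s1, a serine protease that starts the classical complement pathway, ranged from 1663 to 3273 (median 2582) against at most 65. The partner protease C1ra and the inhibitor of both, Serping1, were looked at afterwards. C1ra ranged from 358 to 1103 (median 772.5) against at most 357, and Serping1 from 7539 to 11118 (median 9385) against at most 2007. The C1 proteases and their inhibitor were thus all highest in NG2+/PDGFRβ+ cells, while the C1q genes belonged to microglia, with 49499 to 61579 (median 54675) for C1qa there.

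Htr1b, a serotonin receptor that constricts cerebral vessels, ranged from 367 to 748 (median 612), with 0 in all endothelial libraries and at most 9 in the others. Dgkg, a diacylglycerol kinase, ranged from 1129 to 3369 (median 2493.5) against at most 39, and Slc47a1, an exporter of organic cations, from 436 to 1704 (median 921) against at most 28. Grip2, a scaffold of PDZ domains, ranged from 498 to 2538 (median 1817) against at most 41, and Susd5 from 2877 to 4549 (median 4176) against at most 138. Tbx18, a T-box factor of the mural lineage, ranged from 1002 to 2417 (median 1557) with log2 differences of 8.76 ± 1.06 against endothelial cells, 8.52 ± 1.06 against astrocytes and 9.03 ± 1.06 against microglia (largest adjusted p = 3.86e-07). The antisense transcript Dhx58os, picked after its values were seen, had 873 to 1340 (median 944) against at most 20, but the libraries do not mark the strand, so that its reads cannot be told apart from those of the overlapping Dhx58, which was not called.

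**Figure D3:**
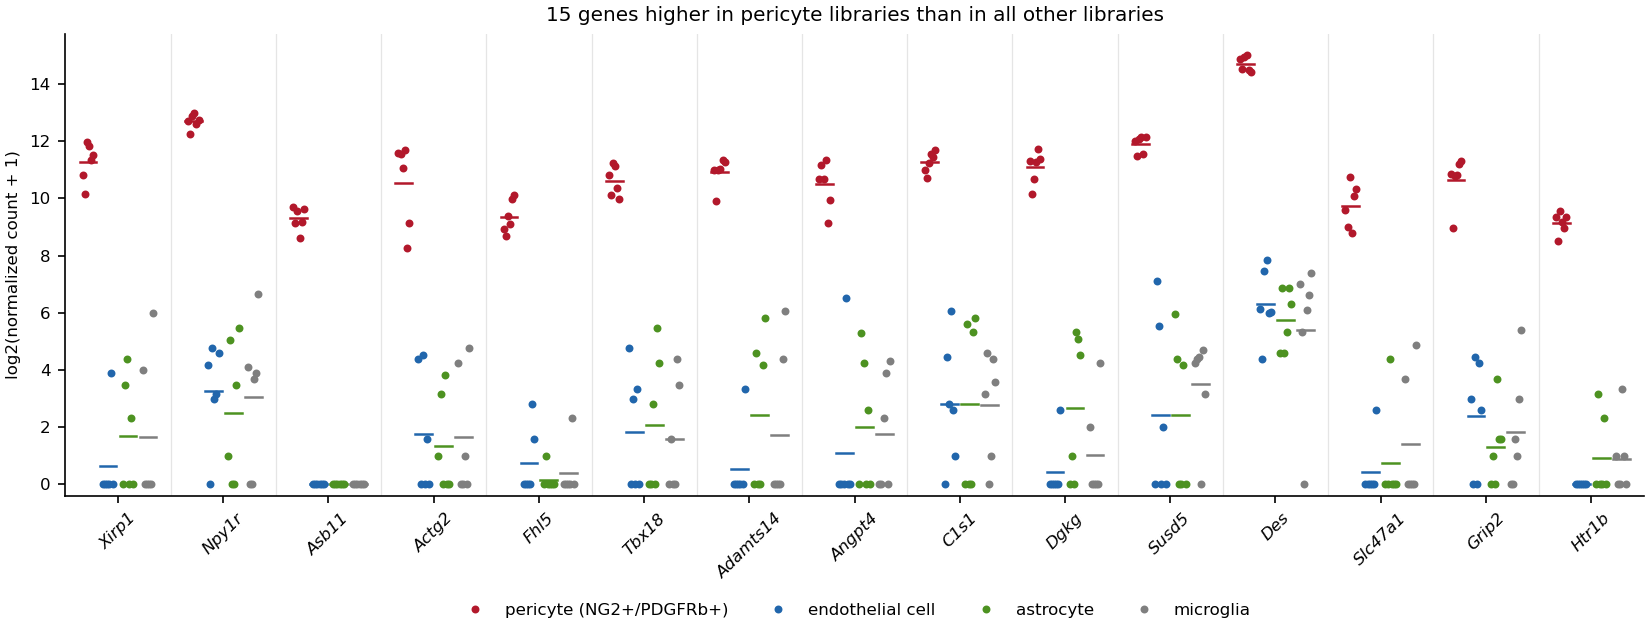
The 15 genes with the largest smallest-of-3 difference among the 905 higher genes, in 24 libraries. The y axis is log2(normalised count + 1), each point 1 library and each bar the mean of 6. For each gene the 6 NG2+/PDGFRβ+ points lie above the 18 others, from 307 counts of Actg2 upwards, and Asb11 is at 0 in all other libraries.

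Per kilobase of exon, the higher genes with the largest mean in NG2+/PDGFRβ+ cells were Acta2 (148700 counts per kb), Myl9 (106400), Fos (69870), Sparcl1 (28860) and Dstn (23980). Dstn, the actin-severing destrin, ranged from 31651 to 58931 (median 46666) against at most 6447 elsewhere. Sparcl1, a secreted matrix protein that astrocytes also make, ranged from 71486 to 101951 (median 83445) against 28951 to 63317 (median 46485.5) in astrocytes, a log2 difference of 0.88 ± 0.19 (adjusted p = 5.01e-04). Its call was lost when replicates 5 and 6 were fitted alone. Fos, an immediate early transcription factor, ranged from 120440 to 202152 (median 166241) and lay above 50056 to 101622 (median 69861.5) in microglia, its nearest group.

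Of 24 listed genes for signals between endothelium and pericytes, 9 were higher and 0 lower in all 3 comparisons, against 5.18% and 2.60% of all genes. The 9 include Pdgfrb, whose protein was used for sorting. Against endothelial cells alone 10 were higher and 8 lower (13.4% and 12.3% of all genes), and median log2 differences were 0.28, 2.27 and 1.82. The ligand Pdgfb, which recruits pericytes, ranged from 1143 to 2338 (median 1772) in endothelial cells, 695 to 1333 (median 1004.5) in microglia and 115 to 310 (median 238.5) in NG2+/PDGFRβ+ cells, whereas its receptor Pdgfrb was higher in the latter (above). Pdgfa was higher in NG2+/PDGFRβ+ cells than in each other type, from 2361 to 3740 (median 2887.5) against at most 762, a gene picked after its values were seen. Of the receptors, Pdgfra, which marks fibroblasts and oligodendrocyte precursors, was not called and had 0, 99, 156, 0, 304 and 247 counts in replicates 1 to 6.

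Angpt1, the activating ligand of TIE2, ranged from 422 to 1787 (median 712) against at most 191, with a log2 difference of 2.85 ± 0.84 against astrocytes, its nearest group, and lost its call in replicates 1 to 4 alone. Tek, which encodes TIE2, ranged from 3634 to 12402 (median 10432) in endothelial cells and 11 to 632 (median 174.5) in NG2+/PDGFRβ+ cells. Pgf, placental growth factor, ranged from 4444 to 5005 (median 4673.5) against at most 466, and Vegfd from 24 to 148 (median 78) against at most 39, with overlap. Both were picked after their values were seen. Flt1, the receptor for Pgf, ranged from 37272 to 57780 (median 49931) in endothelial cells and 324 to 1371 (median 947.5) in NG2+/PDGFRβ+ cells.

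In the Notch pathway the receptor, a ligand and a target were higher. Notch3, the receptor of mural cells, had 10516, 2849, 11973, 16587, 22702 and 11896 counts in replicates 1 to 6 and at most 735 elsewhere, with log2 differences of 7.75 ± 0.74 against endothelial cells, 4.95 ± 0.74 against astrocytes and 7.62 ± 0.74 against microglia (largest adjusted p = 6.10e-06). Heyl, a transcriptional target of NOTCH3, ranged from 5708 to 9847 (median 8289.5) against at most 1739. Jag1, a ligand, ranged from 1093 to 3662 (median 1544.5) and was only 1.14 ± 0.42 above endothelial cells (503 to 1453 (median 804.5)), and its call was lost without replicate 1, 3 or 4. Among the other receptors, Notch1 and Notch2 were not called, and Notch4, an endothelial receptor, was lower than in each other type with 5 to 128 (median 64.5) against 1514 to 2319 (median 1767.5) in endothelial cells, 60 to 371 (median 160.5) in astrocytes and 307 to 817 (median 464.5) in microglia. Its call against astrocytes did not hold with astrocyte libraries 2, 5 and 6 left out. The ligand Dll4 and the target Hes1 were not called, Dll4 being endothelial at 1058 to 2774 (median 1929).

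For TGF-β, Tgfb3 was higher, with 5120 to 11823 (median 9485.5) against at most 269 in any other library, while Tgfb1 was highest in microglia (215 to 519 (median 270)) and ranged from 4 to 39 (median 21.5) in NG2+/PDGFRβ+ cells. The receptor genes Tgfbr1, Tgfbr2, Tgfbr3, Acvrl1 and Eng were not called. Acvrl1 and Eng, the receptor pair of endothelial TGF-β and BMP signalling, were at 7137 to 17128 (median 14590.5) and 1894 to 18828 (median 17005.5) in endothelial cells against 271 to 647 (median 437.5) and 670 to 2285 (median 1031.5). Of the sphingosine-1-phosphate receptors, S1pr3 ranged from 14740 to 20551 (median 16250.5) against at most 2992, S1pr2 was not called, and S1pr1, looked at after the calls were seen, was lower with 334 to 1186 (median 879.5) against 7607 to 27098 (median 21908) in endothelial cells and 1127 to 1860 (median 1281.5) in microglia, although without replicate 4 or 5 that call was lost. Rgs4, a regulator of G protein signalling, had 31912, 21620, 23683, 29384, 43884 and 44385 counts in replicates 1 to 6 against at most 2146 elsewhere, replicates 5 and 6 being the highest. Cdh2, the N-cadherin that joins pericytes to endothelium, was not called, with 0 to 165 (median 47.5) in NG2+/PDGFRβ+ cells and 1578 to 4104 (median 2423) in astrocytes.

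Of 25 tested transcription factors linked to mural cells, 12 were higher and 0 lower, against 5.18% and 2.60% of all genes; Meox2 had too few counts and Nkx3-2 was not analysed here. Median log2 differences were 3.51, 3.70 and 6.47, or 2.63, 3.70 and 5.93 with genes at 0 in a whole group set to 3 reads. The T-box factors Tbx2, Tbx15 and Tbx18 were all higher, Tbx2 with 1136 to 1897 (median 1385) against at most 61 and Tbx15 with 575 to 1465 (median 1209) against at most 58. Tbx3 was not called, as endothelial cells held 396 to 2785 (median 1918.5) against 1000 to 3305 (median 2345.5). The forkhead factors divided in the same way. Foxs1, a pericyte forkhead gene, ranged from 1710 to 2724 (median 2329.5) against at most 72, and Foxc2 from 194 to 1079 (median 497) against at most 61. Foxd1 was low, from 11 to 124 (median 92) against at most 16, and overlapped.

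Foxf2 and Foxc1, which act in brain mural cells, were not called. Foxf2 was higher in endothelial cells (687 to 1601 (median 805.5)) than in NG2+/PDGFRβ+ cells (43 to 344 (median 155.5)), and Foxc1 was at 316 to 1410 (median 644) and 492 to 1107 (median 664). Foxl2 ranged from 74 to 317 (median 110.5) in endothelial cells and reached at most 14, 7 and 3 in the others. Nr2f2, a nuclear receptor of veins, was higher with log2 differences of 2.86 ± 0.46 against endothelial cells, 3.70 ± 0.46 against astrocytes and 6.53 ± 0.46 against microglia (largest adjusted p = 2.37e-05). Zic1, Ebf2 and Twist1 were higher at low level; Twist1 ranged from 14 to 37 (median 22) with at most 3 elsewhere. Epas1 (HIF-2α) was not called, with 6010 to 28067 (median 12648.5) in NG2+/PDGFRβ+ cells and 20590 to 33732 (median 22700) in endothelial cells. The differences of Ebf1, another mural factor, were 1.27 ± 0.77 against endothelial cells, 7.22 ± 0.77 against astrocytes and 7.57 ± 0.77 against microglia, and it missed the threshold against endothelial cells (adjusted p = 0.232) although its lowest library (3729) lay above the highest endothelial one (2862). It was called in separate fits of 2 groups.

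Basement membrane and matrix genes were higher in 14 of 36 cases and lower in 0, against 5.18% and 2.60% of all genes. Median log2 differences were 1.68 against endothelial cells, 4.10 against astrocytes and 6.55 against microglia, and endothelial cells were thus the nearest group for this list. The main collagen IV chains were shared with them, with 6070 to 24851 (median 19810.5) for Col4a1 in NG2+/PDGFRβ+ cells and 5100 to 16208 (median 10403) in endothelial cells (log2 difference 0.68 ± 0.58, adjusted p = 0.414). The minor chains Col4a5 and Col4a6 were not, with 506 to 2548 (median 832) and 93 to 697 (median 396.5) against at most 63 and 7 in endothelial cells. The call of Col4a5 was lost without astrocyte libraries 2, 5 and 6.

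Laminin chains showed a similar pattern. Lamb2, Lamc1 and Lama5 were higher, Lamb2 with 8799 to 39927 (median 21601.5) against 3216 to 10580 (median 8624.5) in endothelial cells, Lamc1 with 1842 to 7875 (median 3421.5) against 427 to 2170 (median 1118) and Lama5 with 2845 to 6948 (median 5165.5) against 687 to 1699 (median 1445). Lama4, Lamb1, Lamc3 and Lama2 were not called. Lamc3 had 837, 178, 388, 561, 10150 and 5253 counts in replicates 1 to 6 and was called when replicates 5 and 6 were fitted alone. Fn1, fibronectin, belonged to endothelial cells, 19564 to 34418 (median 26755) against 1511 to 4234 (median 2465.5).

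Of the collagen VI and integrin genes listed, Col6a1, Col6a2, Itga7, Itga8 and Itgb1 were higher. Col6a1 and Col6a2 ranged from 774 to 2394 (median 1330) and 1075 to 2641 (median 1729), and endothelial cells held 0 and at most 5 counts, whereas 1 astrocyte library reached 1313 and 870. Itga8, the receptor for nephronectin, ranged from 1823 to 3013 (median 2281.5) against at most 54. Itga7, a laminin receptor of muscle, ranged from 5141 to 18596 (median 11079) with astrocytes next at 948 to 2135 (median 1563.5). Itgb1, their shared β chain, had 28844 to 37554 (median 35689.5) against at most 9688. By contrast Itga6, another laminin receptor, was among the 12 lowest genes (below). Itga1 and Itga5 were not called. Of 77 genes labelled ECM-receptor interaction, 17 were higher (22.1%) and 2 lower (2.6%), against 5.18% and 2.60% of all genes. Of 189 labelled focal adhesion, 38 were higher (20.1%) and 2 lower (1.06%).

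Of 11 fibroblast markers tested, 5 were higher, Col1a1, Col1a2, Col3a1, Lum and Ogn, and 0 lower, against 5.18% and 2.60% of all genes, and Dpt was not analysed here. The call of Col1a1 was lost without replicate 3, 5 or 6. Col1a2 ranged from 2521 to 5809 (median 4128.5) against at most 818, and Col3a1 from 1980 to 5957 (median 2532.5) against at most 129. Ogn (osteoglycin) ranged from 2882 to 5103 (median 3903) against at most 120. Dcn, the defining decorin gene, ranged from 183 to 2013 (median 1146.5) and was not called (adjusted p against astrocytes = 0.0695). It was called higher when astrocyte libraries 2, 5 and 6 were left out (smallest log2 difference 3.63), without NG2+/PDGFRβ+ replicate 4 (2.92), without replicate 2 of all cell types (3.26) and in replicates 5 and 6 alone (3.25). Lama1 was at 0, 0, 0, 0, 194 and 74. The 11 markers summed to 11004 to 21662 in NG2+/PDGFRβ+ libraries against 218 to 1030 in endothelial cells, 1844 to 3632 in astrocytes and 119 to 380 in microglia. None was at 0 in all 6 libraries. Their part in the matrix results was not tested, and mural cells are known to express several of them.

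Of 10 listed genes of respiratory chain isoforms and their paralogs, 3 were higher and 0 lower, against 5.18% and 2.60% of all genes. Cox4i2, Ndufa4l2 and Higd1b were higher, and their paralogs Cox4i1, Ndufa4 and Higd1a were not called. Ndufa4l2 and Higd1b also stand on the identity list, so their calls were counted there too. Cox4i2, the oxygen-sensitive isoform of a cytochrome c oxidase subunit, ranged from 229 to 1508 (median 654) against at most 129, with log2 differences of 5.73 ± 0.76 against endothelial cells, 3.57 ± 0.76 against astrocytes and 5.82 ± 0.76 against microglia (largest adjusted p = 4.26e-04). Cox4i1 ranged from 5155 to 9270 (median 7266.5) and from 4084 to 21492 (median 4959.5) in endothelial cells, with log2 differences of 0.09 ± 0.30 against endothelial cells, -0.01 ± 0.30 against astrocytes and 0.71 ± 0.30 against microglia. Ndufa4l2 had 1165, 805, 770, 1525, 3788 and 2263 counts in replicates 1 to 6 against at most 136 elsewhere, and Ndufa4 ranged from 835 to 2876 (median 1878). Higd1b had 2149, 1481, 905, 1746, 5017 and 3773 counts and Higd1a ranged from 668 to 1790 (median 1153), with log2 differences of 0.66 ± 0.30 against endothelial cells, 0.33 ± 0.30 against astrocytes and 1.76 ± 0.30 against microglia. The muscle isoforms Cox7a1 and Cox6a2 did not follow, being at 0 to 16 (median 5.5) and 0 to 18 (median 0), while their paralogs Cox7a2 and Cox6a1 were at 1295 to 2981 (median 1973) and 2237 to 4823 (median 3889). None of these 4 was called.

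Of 110 genes labelled oxidative phosphorylation, 6 were higher, a share near the 5.18% over all genes. The tricarboxylic acid cycle had 6 of 28 higher (21.4%), namely Dlst, Ogdh, Dld, Pdha1, Pck2 and Sdhc, genes singled out after their values were seen. The differences were small. Dlst, a subunit of the 2-oxoglutarate dehydrogenase complex, ranged from 2066 to 3340 (median 3187) against at most 1953, and Sdhc of complex II from 2587 to 4168 (median 3016) against at most 2410. Ogdh lost its call without replicate 4, 5 or 6 and Dld without replicate 1 or 2.

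Of 23 transporters tested, 3 were higher and 0 lower, against 5.18% and 2.60% of all genes. Slc19a1, the reduced folate carrier, ranged from 4847 to 10110 (median 8041.5) against at most 1753. Slc38a11, a putative amino acid transporter, ranged from 3872 to 10162 (median 6468) against at most 200. Atp2b4, a plasma membrane calcium pump, had log2 differences of 3.07 ± 0.42 against endothelial cells, 3.78 ± 0.42 against astrocytes and 7.76 ± 0.42 against microglia (largest adjusted p = 2.10e-06). Atp1b2, the sodium pump β subunit that carries the ACSA2 epitope used for sorting, ranged from 3584 to 16242 (median 9325) in cells gated as ACSA2 negative, against 18115 to 56109 (median 31842.5) in astrocytes, at most 428 in endothelial cells and at most 403 in microglia. Gfap, Aqp4 and Aldh1l1 reached at most 83, 131 and 178 in NG2+/PDGFRβ+ libraries. All 10 listed astrocyte markers were lower than in astrocytes (22.6% of all genes). Against endothelial cells 2 were higher and 0 lower (13.4% and 12.3% of all genes). Against microglia 1 was higher and 1 lower (17.8% and 19.4%).

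Lower genes showed smaller differences than higher ones. Of the 454, 325 lay at least 1 log2 unit below each other type, and 432 were protein coding. The 12 genes with the largest gap without overlap were Tgfa, Smpdl3b, Dock4, Thrsp, Slc36a1, Itga6, Adgrg1, Tmem44, Prune2, Angel1, Zfpm1 and Fmnl2. Tgfa, an EGF receptor ligand, had 25, 342, 0, 0, 52 and 67 counts in replicates 1 to 6 where the lowest of the 18 others had 482. Adgrg1 (GPR56), an adhesion receptor for matrix, was the most abundant of them, with 181 to 696 (median 290) in NG2+/PDGFRβ+ cells against 1289 to 13351 (median 10886) in endothelial cells, 9631 to 21080 (median 13022) in astrocytes and 5876 to 8593 (median 7947.5) in microglia. Itga6, the α6 integrin, had 88, 171, 139, 0, 18 and 68 counts in replicates 1 to 6 against at least 447 elsewhere, with log2 differences of -5.49 ± 0.77 against endothelial cells, -4.44 ± 0.77 against astrocytes and -5.18 ± 0.77 against microglia (largest adjusted p = 3.98e-05).

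Smpdl3b, a lipid-modifying enzyme of the membrane, was at 0 in 5 of 6 libraries and had 1 count in the sixth, where the others had 11 or more. Dock4, an activator of RAC, ranged from 0 to 90 (median 15.5) against at least 163, and the formin Fmnl2 from 0 to 63 (median 17) against at least 97. Slc36a1, a lysosomal amino acid transporter, ranged from 0 to 10 (median 2.5) against at least 15. Thrsp, a regulator of lipid synthesis, ranged from 0 to 69 (median 4.5) against at least 109. Zfpm1, a cofactor of GATA factors, ranged from 0 to 9 (median 1.5) against at least 12, a gap of few reads, and lost its call in replicates 5 and 6 alone. In Tgfa, Dock4, Thrsp and Fmnl2 the highest of the 6 was replicate 2, the library with the most microglial and oligodendrocyte RNA.

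**Figure D4:**
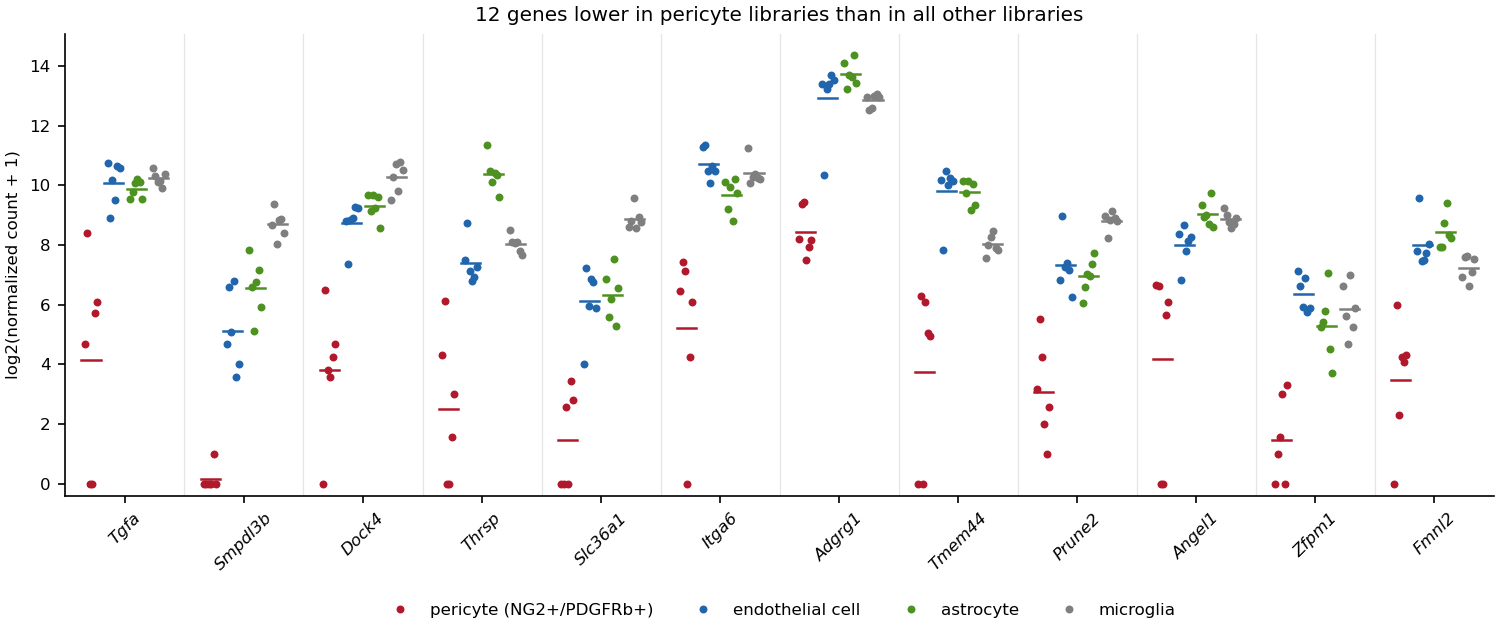
The 12 genes with the largest smallest-of-3 difference among the 454 lower genes, in 24 libraries. The y axis is log2(normalised count + 1), each point 1 library and each bar the mean of 6. NG2+/PDGFRβ+ points lie below all others for each gene, and Adgrg1 is the only one with all 6 above 100 counts.

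Among abundant lower genes, picked after their values were seen, Apoe, the lipid carrier, ranged from 1675 to 8370 (median 2461) against 13148 to 35059 (median 15274) in endothelial cells, 16861 to 26541 (median 24906) in microglia and 165697 to 427153 (median 227564) in astrocytes. Selenop, the selenium carrier, ranged from 1263 to 5388 (median 4258.5) against at least 14824 elsewhere. Slc3a2, the shared chain of amino acid transporters, ranged from 2245 to 4533 (median 2656.5) against at least 8184. The nuclear noncoding RNA Malat1 ranged from 1302 to 7737 (median 3380) and overlapped with endothelial cells and microglia, its lower call being lost without replicate 4.

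MHC class I presentation was low against endothelial cells and microglia but not against astrocytes. Of 13 genes, 9 were lower than in endothelial cells, 11 lower than in microglia and 1 lower than in astrocytes, where 5 were higher. The background of lower calls was 12.3%, 19.4% and 22.6%, respectively. B2m, the shared light chain, ranged from 2300 to 4754 (median 3196.5) in NG2+/PDGFRβ+ cells, 14614 to 58566 (median 22914.5) in endothelial cells, 27297 to 40048 (median 30267) in microglia and 971 to 3661 (median 1562.5) in astrocytes. H2-D1, a heavy chain, ranged from 4672 to 6121 (median 5617) against 20299 to 37620 (median 32373) in endothelial cells. Psmb9, an immunoproteasome subunit, ranged from 23 to 66 (median 46.5) against 355 to 2679 (median 517.5). Tap1, the peptide transporter, was the 1 member lower than in all 3, with 0, 482, 0, 173, 285 and 231 counts in replicates 1 to 6, and this call was lost without replicate 1 or 3. Near-identical class I genes share reads, which the counting left out.

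Of 19 innate sensors and chemokines tested, 1 was higher, a share near the 5.18% of all genes, and 3 were lower (2.60% of all genes). Il34, a ligand of the microglial receptor CSF1R, ranged from 1182 to 3259 (median 1838) against at most 261, with log2 differences of 6.66 ± 0.88 against endothelial cells and 4.61 ± 0.88 against astrocytes (largest adjusted p = 1.16e-04). The other ligand, Csf1, was lower, with 211 to 666 (median 326) against 560 to 1336 (median 771) in endothelial cells, 993 to 1529 (median 1171) in astrocytes and 1161 to 3661 (median 1887) in microglia. Tlr3, a sensor of double-stranded RNA, ranged from 0 to 196 (median 37) against at least 180 elsewhere, so that replicate 2 overlapped with 1 endothelial library. Vcam1, a leukocyte adhesion molecule, ranged from 116 to 1421 (median 325) against 3415 to 15292 (median 7852.5) in endothelial cells. The chemokines Ccl2, Ccl7, Cxcl1, Cxcl10 and Cxcl12 and the cytokine Il6 were not called. Il6 was 4.88 ± 0.88 above endothelial cells and 4.95 ± 0.88 above astrocytes but -0.56 ± 0.88 against microglia.

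RNA of other cell types in the NG2+/PDGFRβ+ libraries was measured with marker lists. Of the endothelial (12 genes), astrocyte (10), microglia (10), oligodendrocyte precursor (10), oligodendrocyte (10), neuron (10) and blood cell (8 tested) markers, 0 were higher and 0 lower in all 3 comparisons (limma). At an unadjusted p under 0.05 in all 3, 1 neuron and 1 blood cell marker were lower and 0 markers of these lists higher. Of all 17470 genes tested, 946 were lower and 1257 higher by that rule. Endothelial markers summed to 3.66% to 6.55% of their mean in endothelial libraries, astrocyte markers to 0.173% to 1.48% of their mean in astrocyte libraries and microglia markers to 0.0731% to 5.68% of their mean in microglia libraries. The highest microglia share was that of replicate 2, and it was also highest for oligodendrocyte precursor (3534 against 197 to 487) and neuron markers (1734 against 0 to 413). Blood cell markers ranged from 1235 to 11040, of which Ly6g and Cd79a were at 0 in all 6, and Cd3e was not analysed here. Esam, which mural cells also express, made up much of the endothelial sum with 7617 to 12549 (median 9666), whereas Cldn5 ranged from 538 to 2231 (median 918.5) and Cdh5 from 17 to 95 (median 56) against 1767 to 3275 (median 2245) in endothelial cells. The part of this RNA in the results was not tested beyond leaving out replicate 2.

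**Figure D5:**
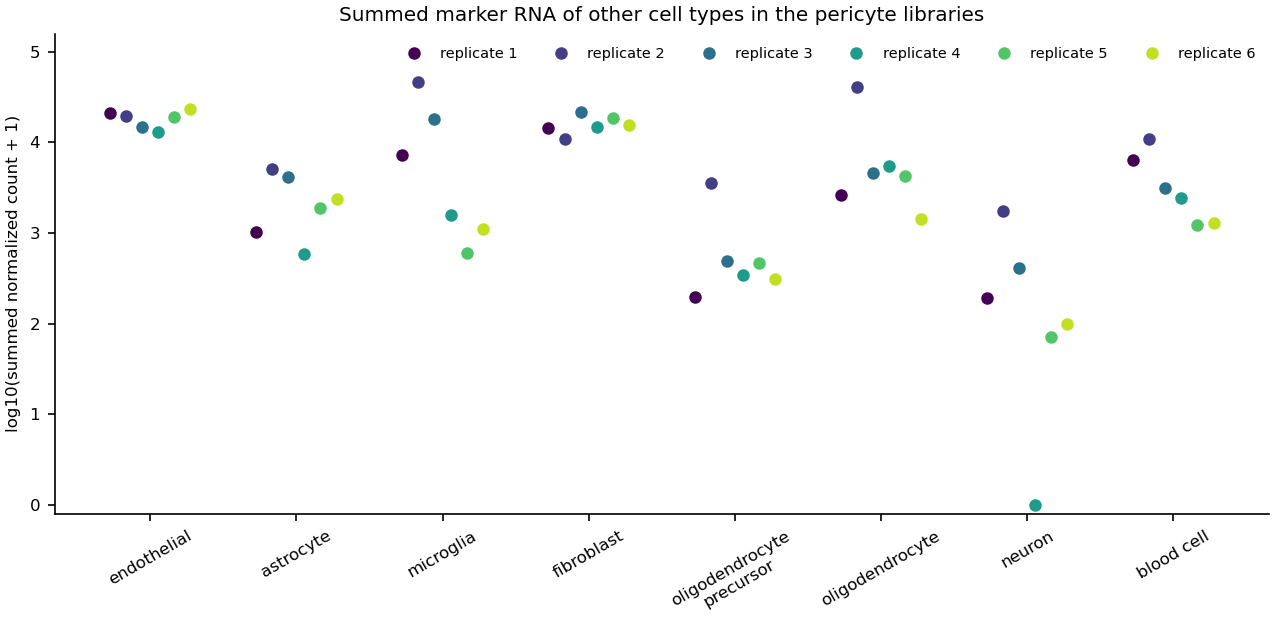
Summed marker RNA of other cell types in the 6 NG2+/PDGFRβ+ libraries. The y axis is log10(summed normalised count + 1) over the markers of a cell type, and each point is 1 library. Replicate 2 is the highest for astrocyte, microglia, oligodendrocyte precursor, oligodendrocyte, neuron and blood cell markers, with 46262 for microglia, while the endothelial and fibroblast sums vary little.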

How the data were processed

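RNA from about 250 pg per library had been reverse transcribed and amplified (SMART-Seq HT) and sequenced as single unstranded reads. Per the submitters' notes and the methods, reads were trimmed with Trimmomatic 0.38, aligned to mm10 with STAR 2.6.1d and counted per gene with featureCounts 1.6.3, leaving out reads on several genes or places. The deposited score is a count that the authors divided by a DESeq2 (1.18.1) size factor for each library and rounded to whole numbers, so no count model was applied here. Rounding and scaling blur values of a few reads.

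Log2(normalised count + 1) was fitted with limma 3.58.1 (R 4.3.3, trend, two-sided) over 24 contralateral libraries in 4 groups, and each of 3 contrasts was Benjamini-Hochberg adjusted over 17470 genes. On this scale the added count shrinks fold changes of low genes, while libraries at 0 can widen the log2 difference between group means. Asb11, at 0 in all endothelial libraries, was 628-fold higher on this scale, where the limit of 3 reads gave at least 174-fold. A higher call needed an adjusted p of at most 0.05 and a log2 difference of at least 0.585 in all 3 contrasts, with more than 10 counts in all 6 NG2+/PDGFRβ+ libraries, and a lower call the reverse, with more than 10 in all 18 others. The fit was also run on simulated data, which gave the 4 groups the same mean except in the changed genes. Those data did not copy the large differences between cell types seen here, so no conclusion is drawn from that run. Whether the 4 cell types of a replicate number came from the same pool of brains is not stated by the labels. Deviations from the group means correlated at a mean of 0.13 (EC), 0.082 (AC) and 0.044 (MG) with NG2+/PDGFRβ+ cells of the same number, and at -0.023, -0.016 and -0.008 with other numbers.

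Genes named were the 15 higher and 12 lower genes without overlap and with the largest smallest-of-3 difference, the 5 higher genes with the largest mean per kb of exon, and members of gene lists, a few of which are not reported here. The members and lists were chosen with earlier results of these data known. The 24 columns of the ipsilateral hemisphere were not used here. Promoter sequences came from RefSeq (GRCm38.p6).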

Additional observations from a re-analysis of the deposited data

Results flagged for a closer look

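In 72 genes named above, the highest or lowest of the 6 NG2+/PDGFRβ+ libraries was compared with its nearest neighbour relative to the range of the group (Dixon's ratio at its 95% critical value for 6 samples), and 8 genes had a library that stood apart. Chance alone gives about 1 such gene in 20. Replicate 2 was the one in 6 of the 8. It was highest for the lower genes Tgfa (342 against 67 in the next library), Dock4 (90 against 25), Thrsp (69 against 19) and Fmnl2 (63 against 19), and lowest for the higher genes Adamts14 (961 against 2021) and Cspg4 (12206 against 24325). The same library held 46262 summed counts of microglia markers, where the other 5 held 596 to 18155, and the part of this RNA in the 6 values was not tested. Replicate 4 was highest for Myl9 (171005 against 124855) and for Lmod1 (2921 against 2394), and its microglia markers summed to 1562. All 8 genes kept their calls when each NG2+/PDGFRβ+ library was left out in turn.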

How the results depend on the processing

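The deposited values are normalised counts without the raw reads, so the precision at low counts rests on an estimated depth, and genes under about 4 normalised counts were not detectable above 0. The 905 higher and 454 lower genes came from 1 limma fit of 24 libraries. In separate fits of 2 groups, which hold 12 libraries each, 297 genes were lower (286 shared with the 454) and 985 higher. The replicate block, with the replicate number as a term of the fit, gave 927 higher and 492 lower genes (896 and 442 shared). This fit lost no call of a named gene and added Colec12, Fosb and C1qb. Leaving out each replicate number in turn gave 799 to 925 higher and 354 to 525 lower genes, and leaving out each NG2+/PDGFRβ+ library 845 to 916 and 401 to 520. Other pseudocounts, filters, scalings and thresholds gave 752 to 1039 higher and 325 to 605 lower genes. Of 162 called genes with values in the tables, 124 kept their call under all alternatives run and none changed direction. Calls were lost most often with replicates 5 and 6 alone (21 genes), with replicates 1 to 4 alone (17) and without astrocyte libraries 2, 5 and 6 (12), the last an alternative chosen after seeing the data. These fits hold fewer libraries.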

Other observations

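Immediate early and glucocorticoid-responsive genes were looked at after the calls were seen, so their counts are descriptions. Of 8 immediate early genes, all 8 were higher in NG2+/PDGFRβ+ cells than in astrocytes, 4 were higher than in endothelial cells and 2 higher than in microglia, where the shares over all genes were 13.4%, 13.4% and 17.8%. Fos and Nr4a1 were higher than in all 3. In the study's protocol the vessel fragments, with pericytes and endothelial cells, were homogenised and digested further with collagenase and dispase. The flow-through with the glial cells was meanwhile kept on ice. The part of this handling in Fos and the other immediate early genes was not tested. Nr4a1, an orphan nuclear receptor, ranged from 8914 to 32183 (median 18257.5) against 754 to 11245 (median 7288.5) in endothelial cells, 4941 to 15517 (median 5745) in microglia and 435 to 1413 (median 662.5) in astrocytes, and its call was lost without NG2+/PDGFRβ+ replicate 4 or 5. Egr1 ranged from 28142 to 51717 (median 33917) against 24177 to 76957 (median 40593) in microglia, and Jun from 22972 to 41360 (median 35105) against 37033 to 116961 (median 51767), with overlap in both.

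Of 6 glucocorticoid-responsive genes, 4 were lower than in each other cell type, against 2.60% of all genes, and Per1 and Fkbp5 were not called. Tsc22d3 (GILZ), a direct glucocorticoid target, ranged from 4228 to 5614 (median 4745) in NG2+/PDGFRβ+ cells, 11459 to 23878 (median 17947) in endothelial cells, 10550 to 14592 (median 13114) in astrocytes and 6675 to 14596 (median 10645.5) in microglia, with log2 differences of -1.84 ± 0.17 against endothelial cells, -1.40 ± 0.17 against astrocytes and -1.13 ± 0.17 against microglia (limma, largest adjusted p = 5.87e-06). Glul, glutamine synthetase, ranged from 1694 to 3522 (median 2090) against at least 7592 elsewhere. These 2 of the 6 genes, Tsc22d3 and Glul, lay below every other library, against 0.635% of all genes. Sgk1, a kinase, ranged from 1658 to 5926 (median 2568.5) against 5629 to 10750 (median 9237) in endothelial cells. The receptor gene Nr3c1 ranged from 835 to 1638 (median 916) against 872 to 2187 (median 1720.5) in endothelial cells, a log2 difference of -0.63 ± 0.22, and its call was lost without NG2+/PDGFRβ+ replicate 1, 2 or 3.

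Among the labels with 20 or more tested genes, those with the next largest shares of higher genes after vascular smooth muscle contraction were hypertrophic cardiomyopathy (21 of 69, 30.4%), arrhythmogenic right ventricular cardiomyopathy (19 of 63, 30.2%) and dilated cardiomyopathy (22 of 74, 29.7%). The share over all genes was 5.18%. These 3 labels share higher genes with each other, among them Des, Sgca, Itga7, Itga8, Dag1, Dmd, Ryr2 and Cacna1c. From the contractile list, Tpm1 and Tpm2 carry the hypertrophic and dilated labels and Pln the dilated label.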
